A study of Homo sapiens with 32 samples.

Results

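TALDO1, AKR1A1, IRF3 and BCL2L12 are human genes whose promoters were described in earlier work as dependent on ZNF143. Their start windows were the counted windows whose centre lay within 500 bp of an annotated transcript start of one of the 4 genes, on hg38 with GENCODE release 44. The rule used gene names and positions only and no measured value, though the genes were chosen with earlier results of these data known. It found 11 of the 212358 counted windows, of which 4 belong to TALDO1, 2 to AKR1A1, 3 to IRF3 and 4 to BCL2L12. The last 2 numbers include 2 windows that IRF3 and BCL2L12 share, since these genes are read in opposite directions from neighbouring starts.

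ATAC-seq measures accessible chromatin through the Tn5 transposase, which cuts open DNA and attaches adapters for sequencing, and was run here on HEK293T, a human embryonic kidney cell line. All libraries came from 1 clone, HEK_CloneZD29, whose ZNF143 has an inducible degron tag, so the control libraries carry the tag as well. Treated cells had 50 nM dTAGV-1, a compound that brings a tagged protein to a ubiquitin ligase for degradation, for 30 minutes, and control libraries are titled DMSO. The labels list 32 libraries in 4 groups of 8, and the counts cover replicates 9 to 16, with 8 control and 8 dTAGV-1 libraries. The labels do not say that the replicates are separate cultures, so p-values measure the spread between these libraries, which may be technical. ZNF143 protein was not analysed here, so how far it fell in each library is not known. The comparison asks whether these start regions lose accessibility soon after ZNF143 is targeted.

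ZNF143, also known as Staf, is a zinc finger transcription factor that binds DNA near the starts of many protein-coding and small RNA genes. Its binding site contains CCCA and ATGC with a short gap between them, and a form of the site at many promoters carries ACTACA just ahead of these letters. TALDO1 encodes transaldolase, an enzyme of the pentose phosphate pathway, and AKR1A1 encodes an aldo-keto reductase that reduces aldehydes. IRF3 encodes a transcription factor that switches on type I interferon genes in the innate response to viruses, and BCL2L12 encodes a protein related to the BCL2 family of cell death regulators.

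The letters CCCANNATGC, in which N is any base, were searched on both strands of every window. The matches are shown first because these letters are part of the ZNF143 site described in earlier work. Each run below has 30 bases of hg38, 5′ to 3′ on the strand of the match, with the matched stretch in capitals. The TALDO1 run is chr11:747405-747434 on the minus strand, and its match lies 2 bp from an annotated start. The shared IRF3 and BCL2L12 run is chr19:49665874-49665903 on the minus strand, 13 bp from an IRF3 start and 34 bp from the centre of its window. The IRF3 exon run is chr19:49664404-49664433 on the plus strand, 185 bp from the centre of its window. The TALDO1 internal run is chr11:764609-764638 on the plus strand. The AKR1A1 run, chr1:45550758-45550787 on the minus strand, matches 7 of the 8 fixed letters, with the substitution A7T counted from 1 at the 5′ end of the pattern, and lies 11 bp from an AKR1A1 start.
TALDO1 start: gcgcggacggCCCACAATGCcccgcgggcg
IRF3 and BCL2L12 shared start: atgtgacgctCCCAGCATGCctctggccgg
IRF3 exon window: gccccaaaccCCCAGGATGCatttcctttg
TALDO1 internal start: caggggtgccCCCAGGATGCttggtgggtc
AKR1A1 start, 7 of 8 letters: cttttgctggCCCACATTGCaccgcgcgcc

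The TALDO1 match is set in sequence of which 76.9% is G or C, shown here over chr11:747265-747424 on the plus strand, where the match reads as its complement in capitals.
TALDO1 upstream: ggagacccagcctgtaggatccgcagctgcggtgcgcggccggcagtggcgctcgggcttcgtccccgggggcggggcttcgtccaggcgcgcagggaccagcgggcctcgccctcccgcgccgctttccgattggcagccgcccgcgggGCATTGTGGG

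Of the 11 start windows, 4 held all 8 fixed letters of CCCANNATGC, and in 3 of these the match lay within 100 bp of the window centre. The same letters were in 1.95% of all counted windows and in 1.94% of the 40300 windows near any transcript start. ACTACA was in 0 of the 11 windows, against 16.1% of all counted windows and 9.77% of windows near a start. The longer pattern, ACTACA, any 2 letters, TCCCA, any 2 letters and ATGC, has 15 fixed letters and contains both shorter ones. The best ungapped match to it reached 8 to 11 letters in the 11 windows, with a median of 10, and 13 or more letters were matched in 0 of 11. Over all counted windows 0.645% matched 13 or more letters, and over windows near a start 2.03% did. A match to at least 7 of the 8 letters of CCCANNATGC was common, in 7 of the 11 windows, 34.1% of all counted windows and 30.6% of those near a start, so a match like that at AKR1A1 is not rare. The starts of TALDO1 and of IRF3 and BCL2L12 thus held the full shorter letters without ACTACA, and that of AKR1A1 held neither in full. These are counts of letters and say nothing about whether ZNF143 was bound. RefSeq promoter sequences (GRCh38.p14) were found for TALDO1, AKR1A1 and BCL2L12, and CCCANNATGC was in that of TALDO1 and in 1 of the 2 of BCL2L12.

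Library depth and scaling bear on every value that follows. Totals over all windows were 2275856 to 11418578 counts in control and 3373219 to 13671039 in dTAGV-1 libraries, and all 11 start windows passed the filter on low counts, as did 185040 windows in all. Levels are given as log2 CPM, a window's count relative to its library's total, scaled by TMM with 2 as the prior count, and all windows are 401 bp long. Replicates 11 and 12 of both groups had a flatter signal: the top decile of windows by signal took 32.0% of the counts in control replicate 12, 39.1% in dTAGV-1 replicate 12, 41.9% in dTAGV-1 replicate 11 and 45.9% in control replicate 11, and 48.1% to 49.5% in the other 12 libraries.

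None of the 11 start windows passed the edgeR quasi-likelihood test. The number called at an adjusted p under 0.05 was 0 of 11, where 0.215% of all tested windows were called (397 of 185040; 395 or 0.213% lower, and 2 or 0.00108% higher). The count of 397 was 632 without control replicate 12 and 781 without replicates 11 and 12, and the 11 windows gave 0 in both cases. With an unadjusted p under 0.05 the number was also 0, against 2.85% of all tested windows. DESeq2 and limma voom likewise gave 0 of 11 at both thresholds, and they called 0.23% and 0.293% of their tested windows. Fitted log2 fold changes, dTAGV-1 minus control, ran from -0.15 to 0.15 with a median of -0.054, and the median over all tested windows was 0.0077. The fold change was below 0 in 10 of the 11, as it was in 48.2% of tested windows and in 46.1% of those near a start. Overlapping windows share counts, so these signs are not 11 separate observations. In 10 of the 11 windows the fold change was smaller in size than its standard error. The groups overlapped at all 11, whereas in 0.0713% of tested windows every treated library was below every control library and in 0.00324% every one was above.

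The data also bound what could have been missed. The 95% interval of the fold change excluded a halving of the signal (a log2 change of -1) in 11 of 11 windows. The smallest decrease called among the 395 lower windows was a log2 change of -0.56, and the interval excluded a decrease of that size in 10 of 11 windows. The exception was the TALDO1 window with the lowest signal, where the interval reached -0.57. A decrease to 90.1% of control, as fitted at 1 AKR1A1 window, could not be told from no change in these libraries.

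**Figure D1:**
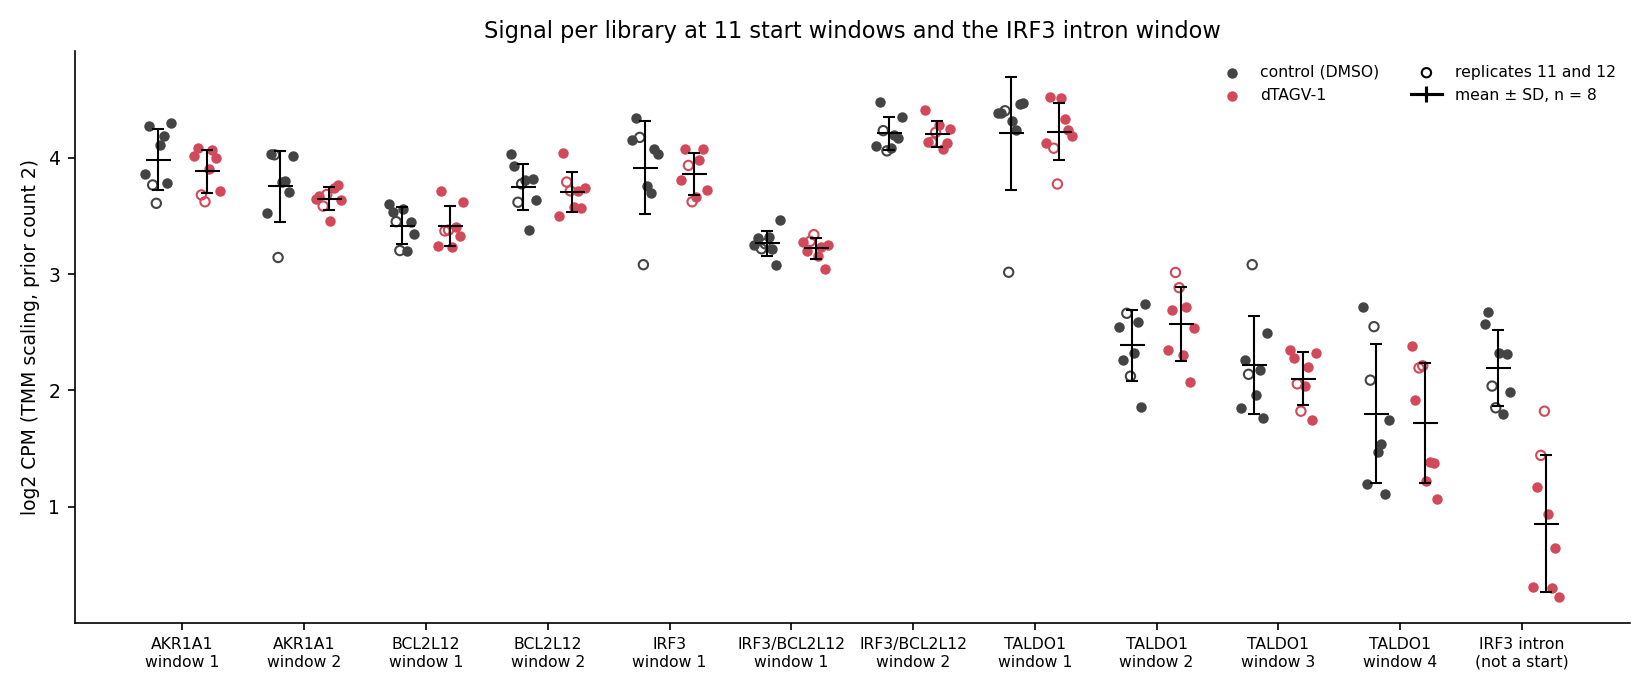
Signal in each of the 16 libraries (log2 CPM, TMM, prior 2; 1 point a library, horizontal bars are means, error bars SD, n = 8 a group) at the 11 start windows and at the IRF3 intron window. Control and dTAGV-1 libraries overlap at all 11 start windows, and at the IRF3 intron window 7 of 8 dTAGV-1 libraries lie below the lowest control library; open points are replicates 11 and 12.

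The TALDO1 start that carries the CCCACAATGC run had, with the shared IRF3 and BCL2L12 start, the highest signal of the 11 windows. Its window (chr11:747143-747543, centre 72 bp from the start in sequence annotated as intergenic) had 21 to 222 counts per control library and 49 to 296 per dTAGV-1 library. Control libraries ran from 3.02 to 4.47 log2 CPM with a median of 4.39 (mean 4.21 ± 0.49, SD, n = 8), and dTAGV-1 libraries from 3.78 to 4.53 with a median of 4.22 (mean 4.23 ± 0.24, SD, n = 8). The lowest value in each group was replicate 12, and the dTAGV-1 values lay inside the spread of the control values apart from 2 libraries at 4.51 and 4.53. The fold change was -0.040 on the log2 scale (SE 0.146, 95% interval -0.33 to 0.25, adjusted p = 1), so 97.3% of the control signal was left, with an interval of 79.4% to 119%. Without control replicate 12 it was -0.12, still with an adjusted p of 1.

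The other 3 TALDO1 windows lie in introns and had lower signal. The window on the far side of the same start (chr11:747587-747987, centre 323 bp away) had 1.86 to 2.75 log2 CPM in control libraries (median 2.43) and 2.07 to 3.02 in dTAGV-1 libraries (median 2.62). Its fold change of 0.15 (SE 0.160, interval -0.17 to 0.47, adjusted p = 1) was the only positive one of the 11. At the internal start of chr11:755327-755727 control libraries had 1.76 to 3.08 (median 2.16) and dTAGV-1 libraries 1.75 to 2.35 (median 2.13), with a fold change of -0.069 (SE 0.174). Here replicate 12 was the highest control library instead of the lowest, and without replicates 11 and 12 the fold change was 0.059. The internal start of chr11:764388-764788, which holds the CCCAGGATGC run, had 1.11 to 2.71 log2 CPM in control libraries (median 1.64) and 1.07 to 2.38 in dTAGV-1 libraries (median 1.65). Its fold change was -0.11 (SE 0.232, interval -0.57 to 0.36), and without control replicate 9, the highest library, it was 0.12.

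AKR1A1 had the largest fitted decreases among the 11 windows, and they too stayed within the spread between libraries. Its 2 windows overlap by 188 bp, and the centres of both lie in the 5′ UTR. The first (chr1:45550573-45550973, centre 10 bp from a start and 1 bp from the CCCACATTGC run) had 3.61 to 4.30 log2 CPM in control libraries with a median of 3.99, and 3.62 to 4.08 in dTAGV-1 libraries with a median of 3.95. Replicate 12 was lowest in both groups, and 4 of 8 dTAGV-1 libraries lay below the control median. The fold change was -0.11 (SE 0.134, interval -0.38 to 0.15, adjusted p = 1), or 92.4% of control (76.6% to 111%). The second (chr1:45550786-45551186, centre 81 bp from a start) had 3.14 to 4.03 in control libraries with a median of 3.80, and 3.46 to 3.77 in dTAGV-1 libraries with a median of 3.66. Each of the 8 treated libraries was under the control median, yet within the control range, whose lowest value, 3.14, was again replicate 12. Its fold change was -0.15 (SE 0.132, interval -0.42 to 0.11, unadjusted p = 0.259, adjusted p = 1 in edgeR), or 90.1% of control (75.0% to 108%), and this was the smallest unadjusted p of the 11 windows. Without control replicate 12 the fold change was -0.20, with an unadjusted p of 0.0902 and an adjusted p of 1.

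At the start shared by IRF3 and BCL2L12 the libraries were the most alike. The window with the CCCAGCATGC run (chr19:49665722-49666122, centre 11 bp from a BCL2L12 start and 47 bp from an IRF3 start, in the 5′ UTR of BCL2L12) had 4.06 to 4.49 log2 CPM in control libraries (median 4.18, mean 4.21 ± 0.14, SD, n = 8). In dTAGV-1 libraries it had 4.07 to 4.41 (median 4.18, mean 4.21 ± 0.11, SD, n = 8), so both groups covered nearly the same range. The fold change was -0.016 (SE 0.127, interval -0.27 to 0.24, adjusted p = 1), or 98.9% of control (82.9% to 118%). The second shared window (chr19:49665405-49665805, centre 8 bp from an IRF3 start and 39 bp from a BCL2L12 start, in the 5′ UTR of both) shares 84 bp with it. It had 3.08 to 3.46 log2 CPM in control libraries (median 3.26) and 3.05 to 3.34 in dTAGV-1 libraries (median 3.24), with a fold change of -0.054 (SE 0.126, interval -0.31 to 0.20). Replicates 11 and 12 lay among the other libraries in both, apart from control replicate 12, the lowest control library of the first window, and dTAGV-1 replicate 12, the highest treated library of the second.

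The remaining IRF3 window (chr19:49664403-49664803) has its centre in a coding exon, 80 bp from an internal start. Control libraries ran from 3.08 to 4.34 log2 CPM (median 4.06) and dTAGV-1 libraries from 3.62 to 4.08 (median 3.87), with replicate 12 lowest in each group. The fold change was -0.11 (SE 0.140, interval -0.39 to 0.18, adjusted p = 1), or 92.8% of control, and without control replicate 12 it was -0.17.

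The 2 windows of BCL2L12 alone overlap by 167 bp and lie in an intron at internal starts. The first (chr19:49672047-49672447, 138 bp from a start) had a mean log2 CPM of 3.42 ± 0.16 without and 3.41 ± 0.17 with dTAGV-1 (SD, n = 8 each), with a fold change of -0.013 (SE 0.129). The second (chr19:49672281-49672681, 372 bp from a start) averaged 3.75 ± 0.20 and 3.71 ± 0.17, with a fold change of -0.049 (SE 0.131). The first ranged from 3.20 to 3.60 in control and from 3.24 to 3.71 in treated libraries, and the second from 3.38 to 4.03 and from 3.50 to 4.04. In both the ranges of the groups nearly coincide.

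Over control libraries the mean levels of the 11 windows fell from 4.21 log2 CPM at the TALDO1 start and the shared start to 1.80 at the last TALDO1 internal start. Neighbours in this order differed by more than the larger of their SDs at only 2 steps. One lay between the BCL2L12 windows, at 3.75 and 3.42, and the other between the second shared window, at 3.27, and the TALDO1 intron window, at 2.39. All 11 windows were above the median level of tested windows, 1.46 log2 CPM. The median of tested windows near any start was higher, 3.05. The TALDO1 intron windows, with averages of 2.50, 2.17 and 1.80 over both groups, were below that. The deposited summits of replicates 1 to 8, which carry no value per library, fell in 9 of the 11 windows, 0 to 43 bp from the window centre, and in 77.8% of all counted windows. The windows without one were the TALDO1 windows at chr11:747587-747987 and chr11:764388-764788. The highest score, 292 on the authors' -log10 scale, was at the shared start, at or above 94.2% of all summits.

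The signal at IRF3 that did fall lay outside the start windows. An intron window of IRF3, chr19:49659737-49660137, centred 1066 bp from the nearest annotated IRF3 start and 5.94 kb from the outermost one, had 9 to 66 counts in control and 7 to 26 in dTAGV-1 libraries. Control replicates 9 to 16 had, in order, 2.57, 2.67, 2.04, 1.85, 2.33, 1.80, 2.31 and 1.98 log2 CPM, and dTAGV-1 replicates 9 to 16 had 0.31, 1.17, 1.44, 1.82, 0.94, 0.30, 0.64 and 0.23. Treated libraries were lower than the lowest control library in 7 of 8 cases, the exception being replicate 12. The log2 fold change was -1.51 (SE 0.22, interval -1.95 to -1.07, edgeR adjusted p = 2.44e-05), which left 35.1% of the control signal (25.8% to 47.7%). Without replicates 11 and 12 it was -1.80 with an adjusted p of 4.41e-09.

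That intron window carries ACTACA 3 times, and its best match to the long pattern has 13 of 15 letters. The run is chr19:49660053-49660081 on the minus strand, with the pattern's span in capitals, printed to set against the start sequences given earlier.
IRF3 intron: gtaaaACTACAACTCCCAGCAGCCctagg

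Within libraries, the intron window minus the shared start window was -2.02 ± 0.32 log2 CPM in control libraries and -3.35 ± 0.62 after treatment (SD, n = 8 each). All 8 treated differences were under the lowest control difference, but 1 of them only just. Treated replicate 12 had 1.822 at the intron and 4.22 at the shared start, and control replicate 14 had 1.801 and 4.195. The same count was not made for other pairs of windows. Both windows were picked with their fold changes, -1.51 and -0.016, known. The separation thus follows largely from the choice, so this is a description and carries no test.

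Elsewhere within 20 kb of the 4 genes' starts no other window was called. Of 36 such windows outside the start rule 33 were tested, and 1, the IRF3 intron, was called lower, 0 were called higher, and no more than that 1 had an unadjusted p under 0.05. Over all tested windows 0.215% were called and 2.85% had an unadjusted p under 0.05 in edgeR. Apart from the IRF3 intron, fold changes near the 4 genes ran from -0.32 to 0.49. The smallest p near TALDO1 was at chr11:765278, with a fold change of -0.32 (unadjusted p = 0.0732), and near AKR1A1 at chr1:45584344, in an intron of NASP, with 0.17 (unadjusted p = 0.194), both giving the window's first base. Near BCL2L12 the smallest p was again at the IRF3 intron.

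**Figure D2:**
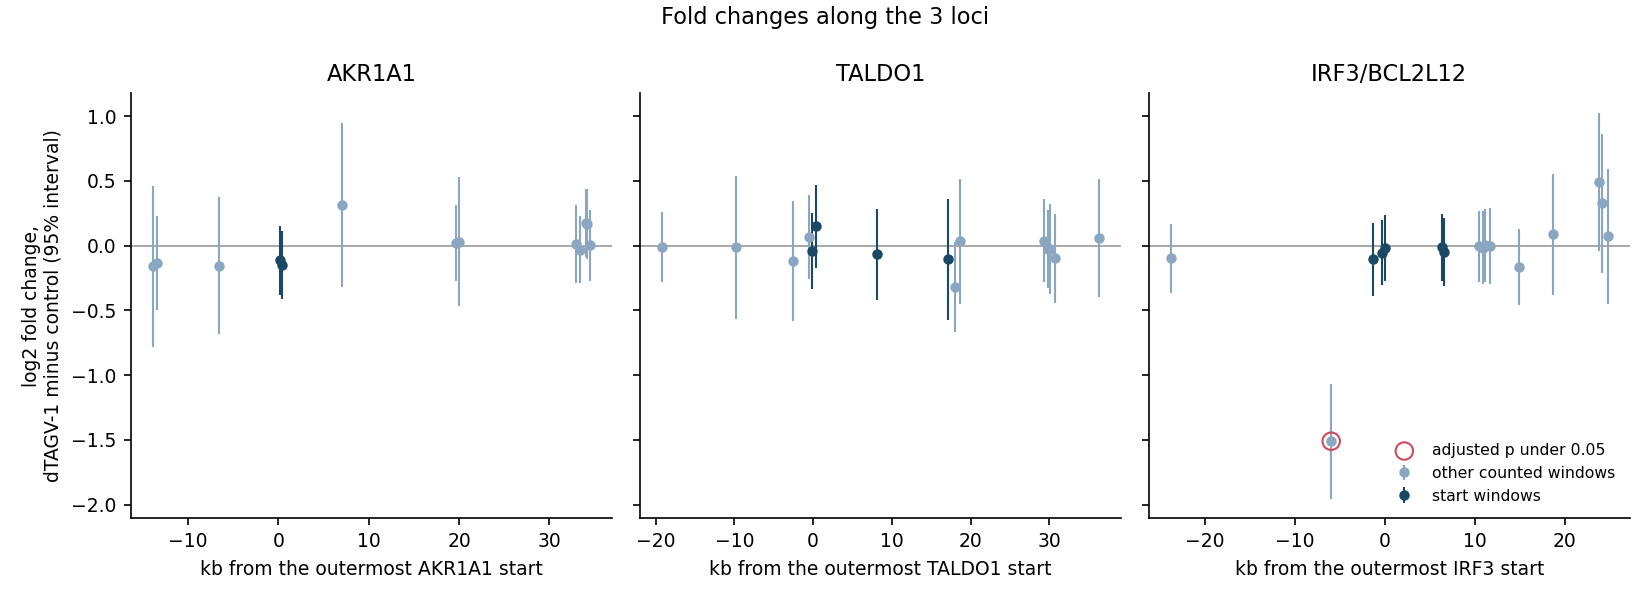
Log2 fold change, dTAGV-1 minus control, of each tested window within 20 kb of the transcript starts of AKR1A1, TALDO1 and IRF3/BCL2L12, against distance in kb from the gene's outermost start along the genome (bars are 95% intervals). The dark start windows lie between -0.15 and 0.15, and the circled IRF3 intron window, at -1.51, is the only one with an adjusted p under 0.05.

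The start windows were set beside those of 5 other gene lists in the same fit. Over 12 other genes named in earlier work as ZNF143 targets, 26 windows of 11 genes were tested, 1 was called lower and 0 higher, and the median fold change was -0.029, where 0.567% of the 38119 tested windows near any start were called. The called window was at MMACHC, a gene of cobalamin metabolism, at chr1:45499959-45500359, a start region shared with CCDC163. Its mean log2 CPM was 5.35 ± 0.29 without and 3.39 ± 0.37 with dTAGV-1 (SD, n = 8 each), with no overlap between the groups. Its fold change was -1.96 (SE 0.151, adjusted p = 2.7e-12), leaving 25.7% of control. Another MMACHC start window, chr1:45508887-45509287, had a fold change of 0.045 (SE 0.219) and was not called. The called start lies 50.4 kb from that of AKR1A1, whose 2 windows kept 92.4% and 90.1% in the same libraries. The called MMACHC window's best match, chr1:45500172-45500200 on the plus strand, has 14 of 15 letters, with its span in capitals.
MMACHC start: aacgaACTACGCATCCCAAGATGCatcgc

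At PLK1, a mitotic kinase and another reported target, 2 start windows had an unadjusted p under 0.05 in edgeR and were not called. Their fold changes were -0.35 (unadjusted p = 0.0185) and 0.43 (unadjusted p = 0.00938), in opposite directions, each with an adjusted p of 1. PLK1 is named here after its values were seen. Over the whole list 4 of the 26 windows had an unadjusted p under 0.05, where 2.85% of all tested windows and 1139 of the 38119 tested windows near a start had one.

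Among genes related to the 4 by function, 1 start window was called, where 0.567% of tested windows near any start were called. Among the 6 other pentose phosphate genes, 0 of 12 start windows were called, with a median of 0.0039, and the smallest p was at RPE, an epimerase of the pathway (fold change -0.28, unadjusted p = 0.0707). Among 8 other aldo-keto reductases, 6 of them with a counted window, 0 of 10 were called, with a median of 0.012, and the smallest p was at AKR1B1, aldose reductase (0.26, unadjusted p = 0.318). Among 8 other interferon regulatory factors, 7 of them with a tested window, 0 of 19 were called, with a median of 0.011. The smallest p was at IRF4 (-0.64, SE 0.36, unadjusted p = 0.0815), in a window of low signal. It had 5 to 17 counts per control library and 3 to 12 per dTAGV-1 library. These 3 lists had 0 windows with an unadjusted p under 0.05 in edgeR, against 2.85% of all tested windows. Among 19 genes of the BCL2 family, 16 of them with a tested window, 1 of 36 was called, with a median of 0.041. It was at BAD, a cell death promoter of the family (chr11:64271288-64271688, centre in an intron of BAD and GPR137, 380 bp from an annotated BAD start). Its fold change was -0.68 (SE 0.137, adjusted p = 0.00536), leaving 62.3% of control (51.5% to 75.3%). The other BAD start windows, at chr11:64284102, chr11:64284544 and chr11:64284980, had fold changes of 0.029, 0.089 and -0.014 and were not called. The BAD window matched 15 of 15 letters of the long pattern. Its groups overlapped, with 2 of 8 dTAGV-1 libraries below the lowest control library.

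**Figure D3:**
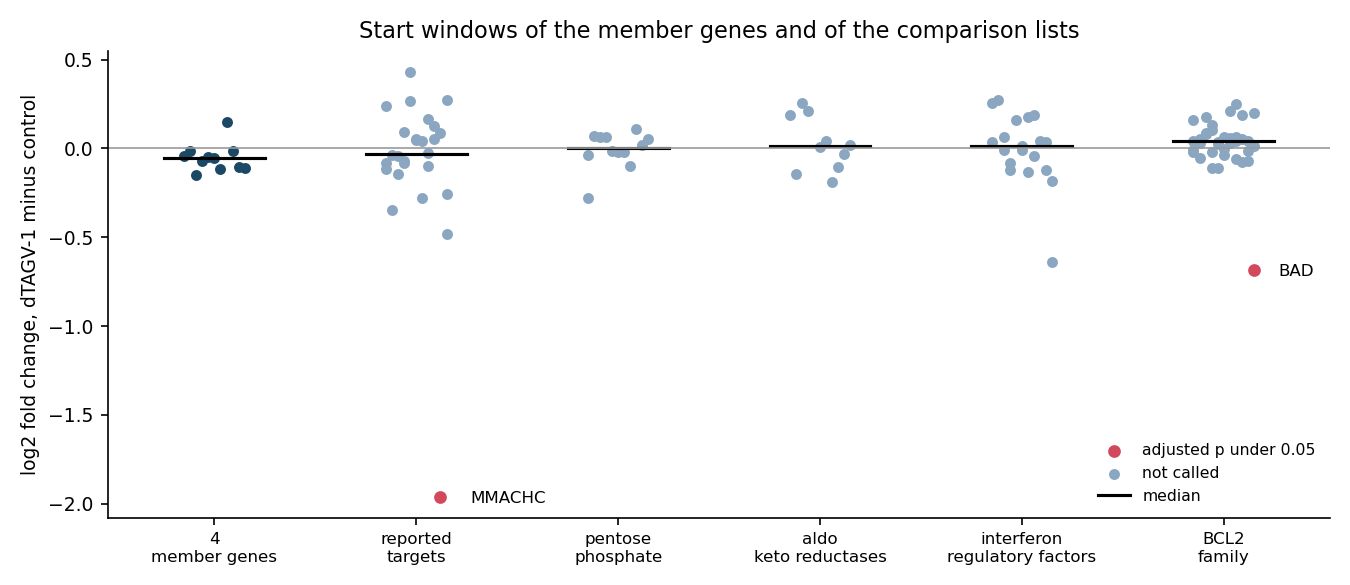
Log2 fold change, dTAGV-1 minus control, of each tested start window of the 4 genes and of the 5 comparison lists (1 point a window, black bars are medians). The 11 windows of the 4 genes lie between -0.15 and 0.15, and the called windows are MMACHC at -1.96 and BAD at -0.68.

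The start windows were then placed among all windows by their letters, a split made after the values were seen. Among tested windows near any start, 0.0652% of those with 11 or fewer matched letters were called lower (24 of 36810), and all 11 start windows of the 4 genes belong to that class. Of these 24 calls, 15 were among the 2162 windows with 11 letters (0.694%), which include 1 of the 11 start windows. Of those with 13 or more letters 19.9% were called lower (157 of 789). Windows with CCCANNATGC and no ACTACA, as in 4 of the 11, were called lower in 14 of 532 cases, or 2.63%, and those with both in 34 of 203, or 16.7%. Among the 395 windows called lower anywhere, ACTACA was in 81.5%, CCCANNATGC in 19.0% and 13 or more letters in 73.2%, against 0, 4 and 0 of the 11. A match with 13 or more letters was also present in 632 windows near starts that were not called lower, so most windows with such a match had no call.

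**Figure D4:**
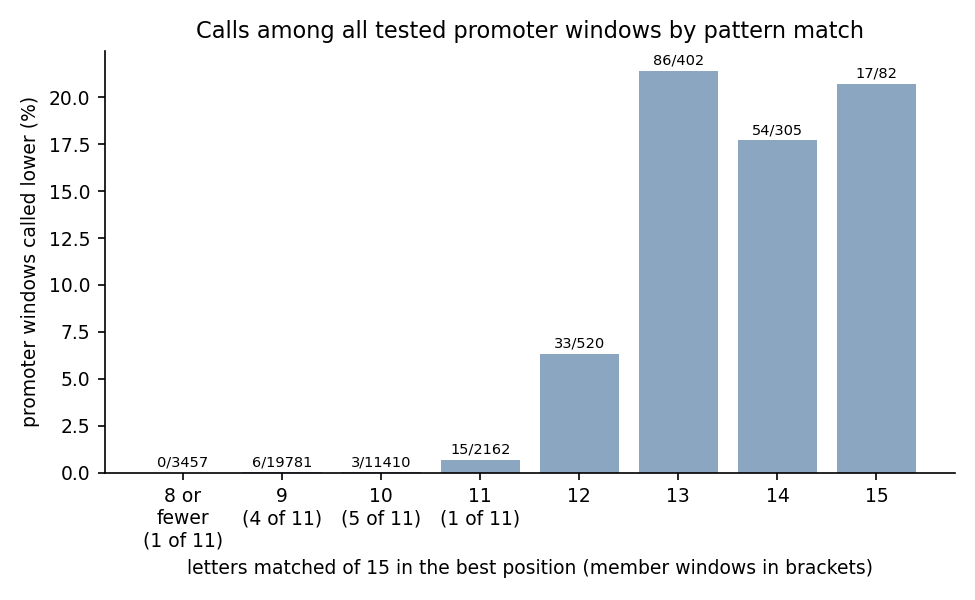
Percent of tested windows near any transcript start that were called lower with dTAGV-1, by the number of the 15 fixed letters matched in the best position (numbers over the bars are windows called and tested; numbers in brackets are start windows of the 4 genes). The 11 windows of the 4 genes lie at 11 or fewer letters, where 24 of 36810 were called, 15 of them at 11 letters. The bars are 0.694% at 11 letters, 6.35% at 12, and 17.7% to 21.4% at 13 to 15.

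The windows near other starts whose levels over the 16 libraries were most like those of the 4 genes are listed next. These correlations are descriptions, since all windows share the libraries and their depth and flatness. The AKR1A1 start was most like windows at IRF1 (Pearson r = 0.864), AP5S1 (0.861) and PRKAG2 (0.847) among 27931 candidates, with 0.713, 0.838 and 0.79 in the 12 libraries without replicates 11 and 12. The TALDO1 start was most like USP44 (0.975), ABI2 (0.973) and EPG5 (0.971), and in the 12 libraries these values were 0.766, 0.668 and 0.795. The values at TALDO1 and at IRF1 were thus lower without the libraries of flatter signal. The shared IRF3 and BCL2L12 start was most like LTBP4 (0.808), ANXA2 (0.777) and ZNF607 (0.707), with 0.808, 0.799 and 0.844 in the 12 libraries. The 9 windows had fold changes between -0.18 and 0.098, and 0 of them were called. They were picked over libraries of both groups for likeness to windows without a difference. The lack of calls thus follows largely from the choice.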

How the data were processed

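ATAC-seq signal was analysed in 16 libraries of a HEK293T clone, 8 control and 8 with dTAGV-1, grouped by the labels. Per the submitters' processing notes, cutadapt 1.8.1, Bowtie2 2.4.4 and SAMtools 1.9 were used and the build was hg38. The peak caller, the counting tool and any shift of reads for the offset of Tn5 are not given in the sources used here. The authors deposited raw whole-number counts for windows of 401 bp, as the header and values show, and for each window a -log10 q value. They also deposited a summit list for replicates 1 to 8 with a score on a -log10 scale and no value per library. Both were used only to describe windows within their own list.

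Counts were tested over all windows in edgeR 4.0.16 (R 4.3.3) with filterByExpr, TMM scaling, the quasi-likelihood test and Benjamini-Hochberg adjustment over 185040 windows, with a threshold of 0.05 and no covariate. Standard errors and 95% intervals were derived from the test statistic. DESeq2 1.42.0, limma 3.58.1 voom with sample weights, other scalings, no filter, a replicate block, other start distances and leaving out libraries were alternatives. DNA letters were read from hg38 with pysam 0.24.0. In simulated counts over 185040 windows for dTAGV-1 against control, the test recovered 105 of 200 changed windows with 9 false calls and 0 of the wrong sign. The changes had mixed sizes, at windows drawn at random from all tested windows. Those had a median level of 1.46 log2 CPM, against 3.73 for the 11 start windows, so the share recovered does not apply to the start windows.

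The windows named were all start windows of the 4 genes, each called window of a comparison list or else that with the smallest p, each called window and the window with the smallest p within 20 kb of each gene, and the 3 windows near starts of other protein-coding genes most correlated with each gene's highest window. The genes, lists and alternatives were chosen with earlier results of these data known. The lists were assembled from general knowledge of these gene families and of reported ZNF143 targets. The values of 1 gene of the reported targets are not reported here.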

Additional observations from a re-analysis of the deposited data

Results flagged for a closer look

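At the TALDO1 start, control replicate 12 had 3.02 log2 CPM, while the other 7 control libraries had 4.24 to 4.47. Its gap to the nearest library was 0.841 of the group's range, above the critical value of 0.526 for 8 samples. It was 1 of 24 groups of 8 values examined, and chance alone gives a gap above the critical value in about 1 of 20 groups. How often chance gives a gap as large as 0.841 was not computed. The same library had the flattest signal of the 16, its top decile of windows taking 32.0% of the counts, and it had the lowest control value at the IRF3 exon window (3.08) and at both AKR1A1 windows (3.61 and 3.14). Without it the TALDO1 fold change was -0.12 instead of -0.040, and its adjusted p stayed at 1.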

How the results depend on the processing

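The number of start windows called was 0 under all 23 alternatives, and the smallest unadjusted p among them was 0.0902 (AKR1A1, without control replicate 12). With starts taken within 250 bp or 1000 bp, 9 or 12 windows entered and 0 were called. The fold change of the TALDO1 internal start at chr11:755327 turned to 0.059 without replicates 11 and 12 and to 0.034 in limma voom. Leaving out 1 library at a time gave signs of both kinds at 5 windows, none called: -0.12 to 0.0054 at the TALDO1 start, -0.13 to 0.019 at chr11:755327, -0.24 to 0.12 at chr11:764388, -0.048 to 0.030 at the shared start and -0.069 to 0.015 at chr19:49672047. The IRF3 intron window stayed called throughout, at -1.80 to -1.42, with adjusted p from 4.41e-09 to 0.000319. Over all windows 397 were called, and the count was 321 to 632 when 1 library was left out (632 without control replicate 12) and 781 without replicates 11 and 12. Same-numbered libraries correlated at 0.0276 to 0.336, over 0.1 in 5 of 8, and 5 of 8 control libraries correlated best with their own number. Libraries of the same number may thus share something, which the labels do not state. The main fit left the numbers out, and the block took them in as an alternative. With the replicate block 753 windows were called, among them all 397 of the main fit. The standard error at the TALDO1 start was 0.0934 with the block and 0.146 without it, so the main intervals are the wider ones there. Reported targets called went from 1 to 2 with the block, without replicates 11 and 12 and without control replicate 12 (1 to 2 over single libraries left out). The block changed no other call given in the text. The cause of these shifts was not tested. The lowest count in a library was 11, 12 and 14 at the TALDO1 windows chr11:747587, chr11:755327 and chr11:764388, where standard errors were 0.160 to 0.232.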
